A study of Mus musculus with 12 samples.

Results

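Prostaglandins and leukotrienes are short-lived signalling lipids made from arachidonate, and this section describes 10 genes whose enzymes make or remove them in mouse liver libraries. The members were chosen by symbol: Ptgs1, Ptgs2, Ptges, Hpgd, Hpgds and Tbxas1 of the prostanoid branch, and Alox5, Alox5ap, Lta4h and Ltc4s of the leukotriene branch. All 10 are among the 25919 rows of the deposited count table. The libraries compared carry the labels CD40 at day 2 (4 libraries) and Kupffer cells at day 0 (2 libraries), Kupffer cells being the resident macrophages of the liver. Every sample was from liver of C57BL/6 mice, 7 weeks old, with no genotype or treatment in the labels. From which event the days count, how the cells were sorted and whether each library is a separate animal are not stated either, so a p-value here reflects only how far these libraries vary, possibly for technical reasons alone. Libraries of a group are called a to d as names only. Label and day differ together between the groups, so their parts in a difference cannot be told apart. CD40 is a receptor of the tumour necrosis factor family, and how it bears on the cells collected is not stated. The table's other groups were not analysed here.

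Phospholipases free arachidonate from membranes, and the cyclooxygenases Ptgs1, which many cells hold constantly, and Ptgs2, which inflammatory signals induce, turn it into prostaglandin H2. Terminal enzymes then set the product: Ptges makes prostaglandin E2, Hpgds makes prostaglandin D2 and Tbxas1 makes thromboxane A2, while Hpgd inactivates prostaglandins by oxidation. In the leukotriene branch the lipoxygenase Alox5, helped by the membrane protein Alox5ap, makes leukotriene A4, from which Lta4h forms the neutrophil attractant leukotriene B4 and Ltc4s forms the cysteinyl leukotriene C4.

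The inducible cyclooxygenase Ptgs2, the prostaglandin E2 synthase Ptges and the lipoxygenase partner Alox5ap were higher in CD40 day 2. The constitutive cyclooxygenase Ptgs1, the prostaglandin-inactivating enzyme Hpgd and the leukotriene C4 synthase Ltc4s were lower there, by 10.8-fold to 36.3-fold. Lta4h was slightly lower, a call that few other settings kept. Hpgds and Tbxas1 did not pass the test, and Alox5 had too few counts to be tested. Levels are in CPM, the counts of a gene scaled to a common library total, tests are edgeR's quasi-likelihood test across 9852 genes, and the threshold is an adjusted p of 0.05.

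Of the 9 members that passed the filter on low counts, 3 were called higher and 4 lower, where 23.2% and 30.2% of all genes tested were called in these directions and 53.4% in either. Ptgs2, Ptges and Hpgds reached the filter level of 7.16 CPM in no Kupffer library and Ltc4s in only 1 CD40 library, so these entered the test through the group in which they are high, and the count is a description of these genes only. The groups did not overlap for the same 7 members, against 66.6% of all genes tested (29.7% higher and 36.9% lower). The median log2 fold change was 0.96 over the 9 members and -0.10 over all genes tested, and the median absolute value was 3.17 against 0.87.

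**Figure D1:**
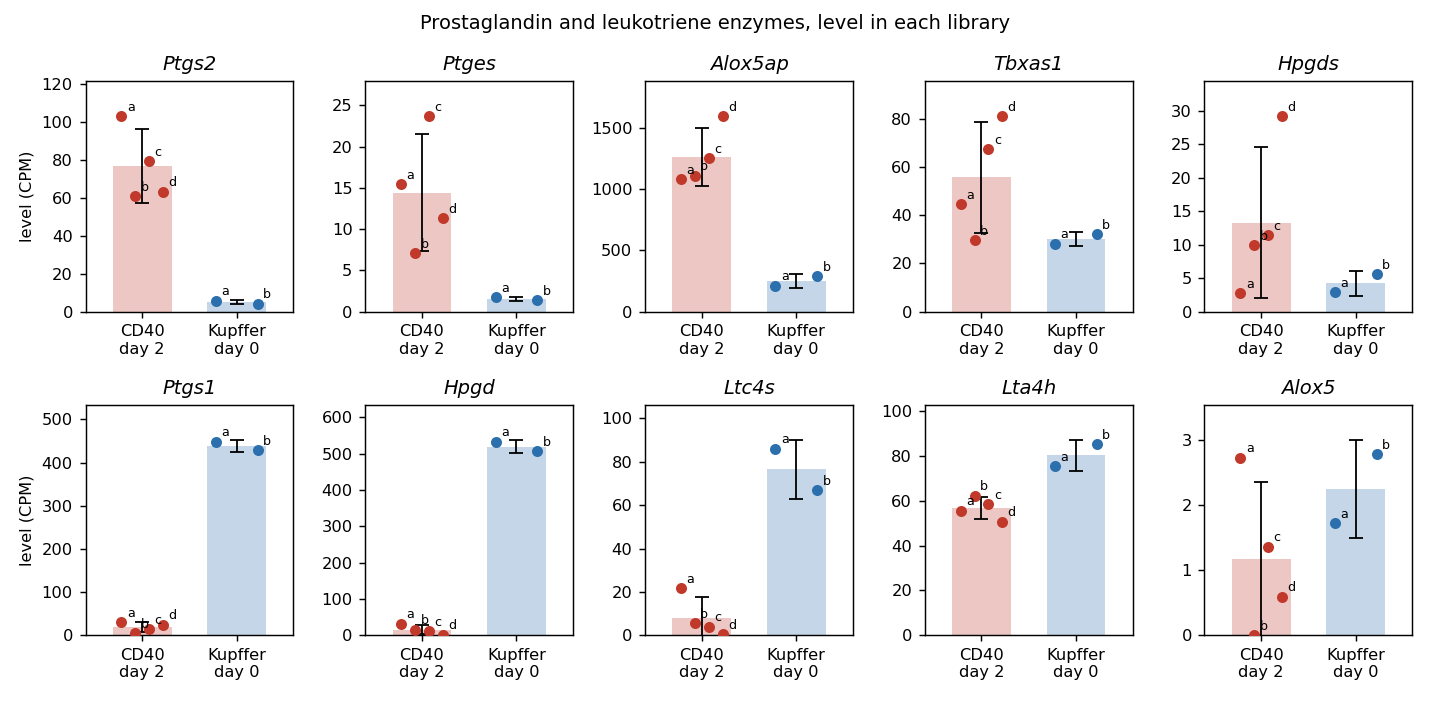
Level of each member in CPM (y axis, linear, a scale of its own for each gene) in the CD40 day 2 libraries a to d and the Kupffer day 0 libraries a and b. Points are libraries, bars are means and error bars are SDs (n = 4 and n = 2). Ptgs2 lies between 60.8 and 102.9 CPM in CD40 day 2 and at 5.74 and 4.18 CPM in Kupffer day 0, while Hpgd lies between 2.38 and 31.9 CPM in CD40 day 2 and at 532.8 and 506.9 CPM in Kupffer day 0.

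The libraries hold 725683 to 2271228 counts in CD40 day 2, and 1612435 and 688498 in Kupffer day 0. A single count is worth 0.455 to 1.41 CPM in CD40 day 2, and 0.574 and 1.39 CPM in Kupffer day 0. The 10 members took 0.127% to 0.176% of all counts in CD40 day 2, and 0.151% and 0.148% in Kupffer day 0. Their summed share was thus alike in size in both groups, while its makeup differed. Mitochondrial transcripts took 1.16% to 1.74% of the counts in CD40 day 2, and 3.13% and 2.63% in Kupffer day 0. Of the markers of liver sinusoidal endothelial cells, 12 of 12 were lower in CD40 day 2, with a summed level of 713.0 to 1293 CPM there against 19510 and 21530 CPM in Kupffer day 0. Of the Kupffer cell markers, 9 of 10 were lower, with 84.9 to 102.5 CPM against 4361 and 3831 CPM, and of the classical monocyte markers 8 of 10 were higher, with 23630 to 36360 CPM against 4302 and 4897 CPM. Libraries labelled Kupffer cells therefore held more counts of the endothelial markers than of the Kupffer markers. The rises described next went together with the monocyte markers and the falls with the other lists, and their part in either was not tested. In bulk samples, fewer cells of a type and less RNA per cell cannot be told apart.

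Ptgs2 lies on chromosome 1 from 150100031 to 150108227 (GRCm38, plus strand), and no other annotated gene overlaps it. Its level was 102.9, 60.8, 79.2 and 63.1 CPM in CD40 day 2 a to d, and 5.74 and 4.18 CPM in Kupffer day 0 a and b. Every CD40 library stood more than 10 times above both Kupffer libraries, which held 10 and 3 counts. Ptgs2 had a log2 fold change of 3.85 ± 0.37 (SE), 14.4-fold higher (edgeR adjusted p = 2.09e-05). Of all genes tested, 98.7% had a lower log2 fold change. Ptgs2 reached the filter level in no Kupffer library and entered the test through CD40 day 2, which fixed its direction. Its rank and calls are thus a description only. The call of Ptgs2 as higher was kept in 11 of 11 alternatives, between 3.68 and 4.16.

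Ptges, on chromosome 2 from 30889471 to 30929863 (minus strand), encodes the inducible microsomal synthase that takes the product of the cyclooxygenases to prostaglandin E2. It was at 15.5, 7.07, 23.7 and 11.3 CPM in CD40 day 2, and at 1.72 and 1.39 CPM in Kupffer day 0. The 4 CD40 libraries were all higher, but they rest on 17, 5, 52 and 19 counts, set against 3 and 1 counts in the Kupffer libraries. Its log2 fold change was 3.17 ± 0.68 (edgeR adjusted p = 0.00323), and the ratio of the pooled counts, scaled to library totals, was 10.1 with a 95% counting interval of 3.8 to 37.7 (exact Clopper-Pearson). Without Kupffer day 0 a the call was lost (3.36, edgeR adjusted p = 0.0609, range over the alternatives 3.58e-06 to 0.0609). Like Ptgs2, Ptges reached the filter level in no Kupffer library, which fixed its direction. An annotated pseudogene overlaps Ptges on the same strand.

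The 250 bases before the start of these genes are shown because both rose, with those of Ptgs1 and Hpgd, which fell, for comparison. They come from RefSeq (GRCm38.p6), run 5′ to 3′ on the strand of the gene, and lie at chr1:150099781-150100030 (Ptgs2), chr2:30903298-30903547 (Ptges, minus strand), chr2:36230176-36230425 (Ptgs1) and chr8:56294302-56294551 (Hpgd). Capitals mark matches, on either strand, to the TATA box (written as TATAAA), the C/EBP element (as TTNNGCAA), the E-box (as CACGTG), the GC box (as GGGCGG), the PU.1 core (as GAGGAA) and the AP-1 element (as TGANTCA), and by name to the interferon-stimulated response element and the NF-kappaB consensus. The RefSeq starts need not be those of the gene spans given here, which are from GENCODE M21.
Ptgs2: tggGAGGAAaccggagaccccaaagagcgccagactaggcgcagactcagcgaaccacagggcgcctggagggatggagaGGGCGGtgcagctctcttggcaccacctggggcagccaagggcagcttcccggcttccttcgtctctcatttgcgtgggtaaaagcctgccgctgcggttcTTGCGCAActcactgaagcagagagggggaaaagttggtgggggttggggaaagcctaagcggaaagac
Ptges: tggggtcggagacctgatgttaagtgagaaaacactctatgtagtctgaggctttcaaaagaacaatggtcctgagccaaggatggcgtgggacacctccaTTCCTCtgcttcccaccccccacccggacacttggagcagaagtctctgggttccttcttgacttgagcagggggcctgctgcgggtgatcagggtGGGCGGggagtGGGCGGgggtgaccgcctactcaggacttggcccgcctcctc
Ptgs1: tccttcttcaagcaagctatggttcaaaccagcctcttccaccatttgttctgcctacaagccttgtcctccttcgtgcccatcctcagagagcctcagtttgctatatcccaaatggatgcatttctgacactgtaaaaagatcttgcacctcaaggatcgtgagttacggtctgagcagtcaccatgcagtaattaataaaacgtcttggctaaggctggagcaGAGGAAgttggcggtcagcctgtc
Hpgd: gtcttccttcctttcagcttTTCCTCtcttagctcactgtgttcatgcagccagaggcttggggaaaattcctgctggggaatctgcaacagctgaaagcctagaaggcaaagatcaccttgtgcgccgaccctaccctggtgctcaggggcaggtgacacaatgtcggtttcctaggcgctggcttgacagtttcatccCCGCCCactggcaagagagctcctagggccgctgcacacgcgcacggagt
The Ptgs2 window holds the palindrome TTGCGCAA, a C/EBP match that begins 69 bases before the start, and 9.56% of 32851 RefSeq promoters of this length hold a C/EBP match. A GC box match begins 170 bases before the start of Ptgs2 and others 53 and 42 bases before that of Ptges, with 1 more, on the other strand, in the Hpgd window; 32.7% of all promoters hold it. The PU.1 core occurs in each of the 4 windows and in 8 of the 9 members with an entry, against 23.3% of all promoters. The NF-kappaB consensus, the E-box and the interferon-stimulated response element had no match in the 9 members (3.9%, 6.02% and 2.98% of all promoters). A match says that the letters are there and no more, and the lack of a match says only that they are not in this window. In the annotation the Ptgs2 window overlaps 183 bases of an exon of Ptgs2os, the Ptges window lies inside an intron of a longer Ptges transcript, and the other windows lie outside genes.

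Hpgds, on chromosome 6 from 65117293 to 65144908 (minus strand), encodes the prostaglandin D2 synthase of blood-derived cells. It was at 2.73, 9.9, 11.4 and 29.2 CPM in CD40 day 2, and at 2.87 and 5.57 CPM in Kupffer day 0. Library a of CD40 day 2 lay below both Kupffer libraries and library d more than 5 times above them, so the groups overlapped. The log2 fold change of 1.88 ± 0.86 did not pass (edgeR adjusted p = 0.0912, range over the alternatives 0.00234 to 0.457). It passed without CD40 day 2 a (2.20 ± 0.67, edgeR adjusted p = 0.0249) and with no filter on low counts (edgeR adjusted p = 0.00234), and it was 1.13 ± 0.67 without CD40 day 2 d.

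Tbxas1, the thromboxane synthase, lies on chromosome 6 from 38875404 to 39084585 (plus strand) and overlaps 4 annotated genes, among them the protein-coding Hipk2 on the other strand. Its level was 44.6, 29.7, 67.4 and 81.0 CPM in CD40 day 2, and 28.1 and 32.0 CPM in Kupffer day 0. CD40 day 2 b lay between the Kupffer libraries and the other 3 above them. Its log2 fold change of 0.96 ± 0.37 missed the threshold (edgeR adjusted p = 0.0519, range over the alternatives 0.00374 to 0.283). It passed in 4 of 11 alternatives, which were RLE scaling (edgeR adjusted p = 0.0446), no filter on low counts (0.00423), and leaving out CD40 day 2 a (0.0474) or b (0.00374).

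Of the members that fell, Ptgs1 had 30.9, 5.66, 14.1 and 24.4 CPM in CD40 day 2, and 448.4 and 428.9 CPM in Kupffer day 0. The gene lies on chromosome 2 from 36230426 to 36252272 (plus strand). The groups were far apart, with the highest CD40 library at 7.05% of the Kupffer mean and the lowest, b, with 4 counts, at 1.29%. Its log2 fold change was -4.49 ± 0.35, a level 22.5-fold lower (edgeR adjusted p = 6.26e-06).

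Hpgd, which encodes the dehydrogenase that begins the breakdown of prostaglandins, lies on chromosome 8 from 56294585 to 56321043 (plus strand). It was at 31.9, 15.6, 11.8 and 2.38 CPM in CD40 day 2, and at 532.8 and 506.9 CPM in Kupffer day 0. No CD40 library exceeded 6.13% of the Kupffer mean, and library d, with 4 counts, was at 0.458%. A log2 fold change of -5.18 ± 0.51 (edgeR adjusted p = 2.39e-05) was the most negative of the members, and 3.25% of all genes tested had a lower one. Without CD40 day 2 a it was -5.82.

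Ltc4s is a short gene of 2156 bases on chromosome 11 from 50236461 to 50238616 (minus strand), and an antisense transcript overlaps it. It had 21.8, 5.66, 4.1 and 0.596 CPM in CD40 day 2, and 86.1 and 66.8 CPM in Kupffer day 0. Library a gave 24 of the 38 CD40 counts and kept 28.6% of the Kupffer mean, whereas d held 1 count, at 0.779%. The log2 fold change was -3.43 ± 0.64 (edgeR adjusted p = 0.00139), and -4.61 without CD40 day 2 a.

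**Figure D2:**
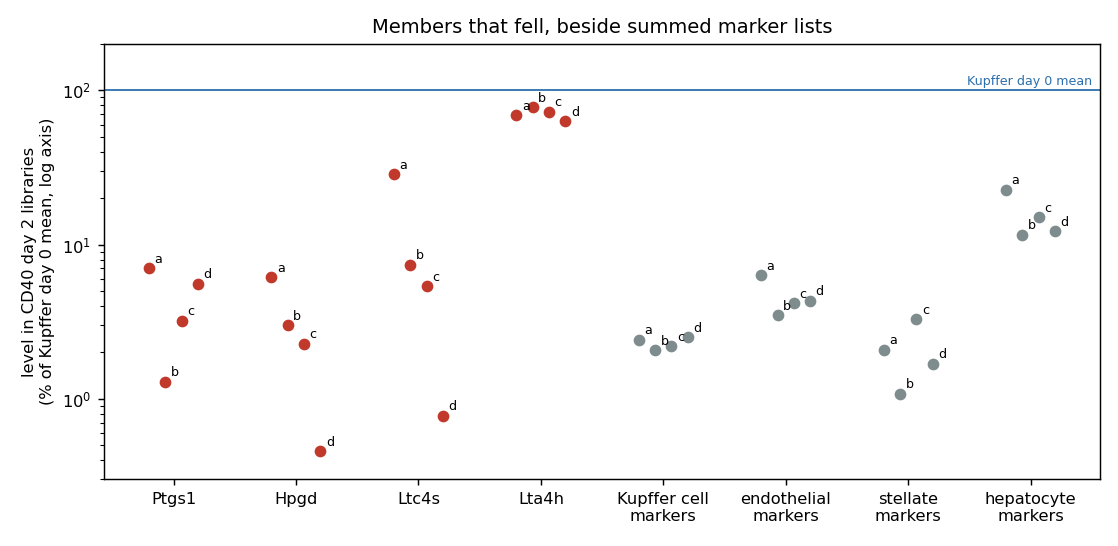
Level of the members that fell in each CD40 day 2 library, as a percentage of the Kupffer day 0 mean (y axis, logarithmic), beside the summed level of 4 lists of marker genes. Points are libraries a to d and the horizontal line is the Kupffer mean. Ptgs1, Hpgd and Ltc4s spread over 0.458% to 28.6%, the endothelial markers over 3.48% to 6.3% and the Kupffer cell markers over 2.07% to 2.5%.

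These 3 falls went together with those of the marker lists of the Kupffer libraries, and the part of those cells in them was not tested. In CD40 day 2 the endothelial markers were at 6.3%, 3.48%, 4.17% and 4.31% of their Kupffer mean, the Kupffer cell markers at 2.42%, 2.07%, 2.2% and 2.5%, and the stellate cell markers at 2.08%, 1.08%, 3.28% and 1.69%. Fcgr2b (159.9 to 465.2 CPM) and Dnase1l3 (209.7 to 278.5 CPM) gave a large part of the endothelial sum in CD40 day 2. That sum therefore does not show how the other genes of its list varied between these libraries. Hpgd and Ltc4s were both highest in library a and lowest in d, and Ptgs1 was highest in a and lowest in b.

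Lta4h, the hydrolase that forms leukotriene B4, lies on chromosome 10 from 93453411 to 93484875 (plus strand). It was at 55.5, 62.2, 58.3 and 50.6 CPM in CD40 day 2, and at 75.2 and 85.0 CPM in Kupffer day 0. All 4 CD40 libraries lay below both Kupffer libraries, by a narrow margin. A log2 fold change of -0.50 ± 0.18 just passed (edgeR adjusted p = 0.0409, range over the alternatives 0.0127 to 0.214), and only 2 of 11 alternatives kept the call. RLE scaling gave an edgeR adjusted p of 0.0578, and the call was lost without any 1 of the 6 libraries and with DESeq2 (adjusted p = 0.202).

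Alox5ap, on chromosome 5 from 149264767 to 149288153 (plus strand), encodes the membrane protein that presents arachidonate to the lipoxygenase. It had 1080, 1109, 1250 and 1594 CPM in CD40 day 2, and 210.7 and 288.3 CPM in Kupffer day 0. It was the member with the most counts in the CD40 libraries (784 to 2746), and the lowest CD40 library stood well above the highest Kupffer library. Alox5ap rose by a log2 fold change of 2.34 ± 0.24, or 5.07-fold (edgeR adjusted p = 2.94e-05). All 11 alternatives kept the call, between 2.12 and 2.58. The table of RefSeq promoters had no entry for Alox5ap.

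Alox5, the lipoxygenase itself, was close to the limit of detection. It lies on chromosome 6 from 116410077 to 116461178 (minus strand). There were 3, 0, 3 and 1 counts in CD40 day 2, and 3 and 2 in Kupffer day 0. The ratio of the pooled counts was 0.606 with a 95% counting interval of 0.166 to 2.42 (exact Clopper-Pearson), so these counts give no direction. In CD40 day 2 b a count of 0 allows a level of up to 4.24 CPM. Intervals and such limits cover counting error only.

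**Figure D3:**
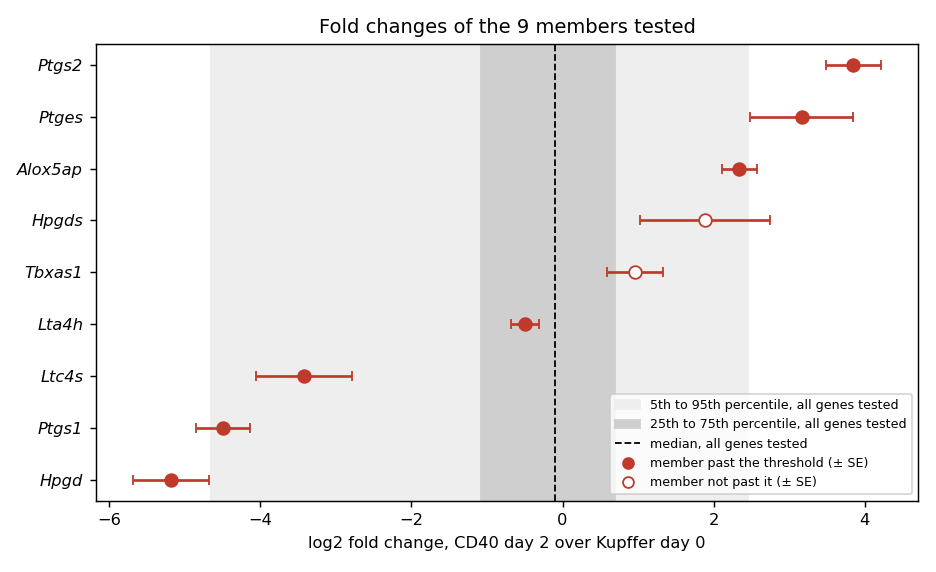
Log2 fold change of the 9 members tested, CD40 day 2 over Kupffer day 0 (x axis), with its SE as error bars. Filled points passed the threshold, and the grey bands show the 5th to 95th and the 25th to 75th percentile of all genes tested. Ptgs2, at 3.85, and Ptges, at 3.17, lie above the 95th percentile of 2.46, and Hpgd, at -5.18, lies below the 5th percentile of -4.66. Ptgs2 and Ptges reached the filter level in no Kupffer library and so entered the test through CD40 day 2.

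Ratios of the counts of 2 members within a library do not depend on how libraries are scaled. A ratio depends on how each gene is captured, so only its difference between groups is read. For 7 pairs the log2 ratio, with 0.5 added to each count, was compared by a two-sided exact permutation test over the 15 splits of 6 libraries, which allows no p under 0.0667, so none could pass. The inducible over the constitutive cyclooxygenase, Ptgs2/Ptgs1, was 3.29, 9.67, 5.54 and 2.57 in CD40 day 2, and 0.0134 and 0.0113 in Kupffer day 0. Every CD40 library lay above both Kupffer libraries, a difference of 8.54 in the log2 ratio (exact p = 0.0667, 0.0933 adjusted over the 7 pairs). Synthesis over breakdown, Ptges/Hpgd, was 0.493, 0.478, 1.98 and 4.33 in CD40 day 2, and 0.00377 and 0.00412 in Kupffer day 0, a difference of 8.24 in the log2 ratio with the same exact p-values. In both pairs each gene's groups already did not overlap, in opposite directions. The separation of these ratios and its p-value followed from those levels and add nothing to them.

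**Figure D4:**
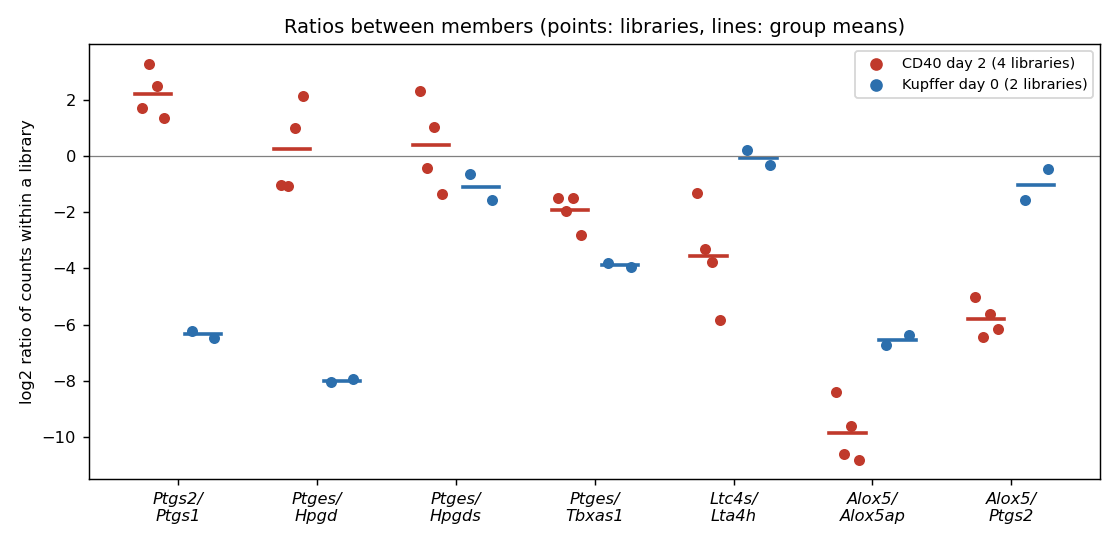
Log2 ratio of the counts of 2 members within each library (y axis) for 7 pairs (x axis), with CD40 day 2 left and Kupffer day 0 right in each pair. Points are libraries and lines are group means. Ptgs2/Ptgs1 averages 2.21 in CD40 day 2 and -6.34 in Kupffer day 0, while the groups overlap for Ptges/Hpgds.

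Among the terminal synthases, the log2 ratio Ptges/Tbxas1 was higher by 1.95 without overlap (exact p = 0.0667). Ptges/Hpgds averaged 0.39 ± 1.62 in CD40 day 2 and -1.12 ± 0.66 in Kupffer day 0 (SD) and the groups overlapped (exact p = 0.267). Of the leukotriene pairs, Ltc4s/Lta4h was lower by a log2 ratio of -3.48 (exact p = 0.133), with 0.398, 0.101, 0.0739 and 0.0175 in CD40 day 2, and 1.14 and 0.789 in Kupffer day 0. Every CD40 library was below both Kupffer libraries in this ratio. Alox5/Alox5ap and Alox5/Ptgs2 differed by -3.32 and -4.78 (exact p = 0.0667 each), and both rest on 0 to 3 counts of Alox5 in a library.

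Other genes of the pathways, in 8 lists of 86 genes, moved in both directions as well. Of the 39 that were tested, 15 were higher and 13 lower in CD40 day 2, with a median log2 fold change of 0.39, where 23.2% and 30.2% of all genes tested were called in these directions. The shares of all genes hold for each list that follows, so the counts are a description of these genes and nothing particular to a list is read from them. The filter level of 7.16 CPM was reached in no Kupffer library by 4 of the 39 genes (3 called higher) and in no CD40 library by 5 (all 5 called lower), and these entered the test through the group in which they are high. Mgll and Tbxa2r, which reached it in only 1 CD40 library each, and Cysltr1, in only 1 Kupffer library, are among others that entered in this way. Among the genes that release arachidonate, 1 of 7 tested was higher and 3 lower. Pla2g4a, the cytosolic phospholipase that frees arachidonate, was at 129.2, 91.9, 131.6 and 98.3 CPM in CD40 day 2, and at 24.1 and 15.3 CPM in Kupffer day 0. It rose in every CD40 library (log2 fold change 2.45 ± 0.28, edgeR adjusted p = 5.95e-05). Mgll, the monoacylglycerol lipase, which yields arachidonate from an endocannabinoid, was at 8.33 ± 2.96 CPM in CD40 day 2 (SD, n = 4) and 317.4 ± 19.6 CPM in Kupffer day 0 (n = 2), a log2 fold change of -5.28 ± 0.24 (edgeR adjusted p = 4.57e-07). Abhd6, another monoacylglycerol hydrolase, was also lower (-3.43 ± 0.29), but it reached the filter level in no CD40 library, which fixed its direction.

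The list for arachidonate activation and return to phospholipids holds acyl-CoA synthetases and acyltransferases, whether or not they are selective for arachidonate. Of its genes 4 of the 7 tested passed upward and 1 downward (median log2 fold change 0.87). Acsl1, an acyl-CoA synthetase, was at 155.0 ± 28.6 CPM in CD40 day 2 and 18.03 ± 6.01 CPM in Kupffer day 0. Lpcat2, an acyltransferase that also makes platelet-activating factor, was at 343.1 ± 152.8 CPM in CD40 day 2 and 76.9 and 75.2 CPM in Kupffer day 0, whereas Lpcat1 was at 122.0 ± 54.8 CPM in CD40 day 2 and 445.3 ± 9.3 CPM in Kupffer day 0. Each of these 3 passed the threshold (edgeR adjusted p = 1.62e-05, 0.00136 and 0.000597).

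The other prostanoid synthases had 1 gene higher and 2 lower among the 5 tested. Ptgis, the prostacyclin synthase, had a count in only 1 CD40 library and 6.89 and 6.96 CPM in Kupffer day 0 (edgeR adjusted p = 0.000711). The filter was applied to CPM on unadjusted library totals. Ptgis reached it in both Kupffer libraries and in no CD40 library, which fixed its direction. Fam213b, a prostaglandin F synthase, was at 92.5 ± 48.4 CPM in CD40 day 2 and 29.2 ± 3.97 CPM in Kupffer day 0 (edgeR adjusted p = 0.0119), a call lost without Kupffer day 0 a (0.133) or b (0.058). Akr1b3, an aldose reductase, was called lower in 4 of its 11 alternatives (-1.04 ± 0.38, edgeR adjusted p = 0.0428, range over the alternatives 0.0233 to 0.279).

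Of 5 genes of transport and further inactivation, 1 was higher and 3 lower. Slco2a1, which carries prostaglandins into cells for breakdown, was at 19.1, 8.49, 3.19 and 2.98 CPM in CD40 day 2, and at 174.5 and 178.3 CPM in Kupffer day 0 (log2 fold change -4.57 ± 0.48, edgeR adjusted p = 3.59e-05). Like Hpgd, it was highest in CD40 day 2 a and lowest in d, and it was at -5.41 without a. Abcc4, an exporter of prostaglandin E2, was at 14.9 ± 2.93 CPM in CD40 day 2 and 51.6 ± 0.101 CPM in Kupffer day 0 (edgeR adjusted p = 0.000194). Ptgr2, a prostaglandin reductase, was higher (0.91 ± 0.30, edgeR adjusted p = 0.0284), and 6 of 11 alternatives kept that call.

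**Figure D5:**
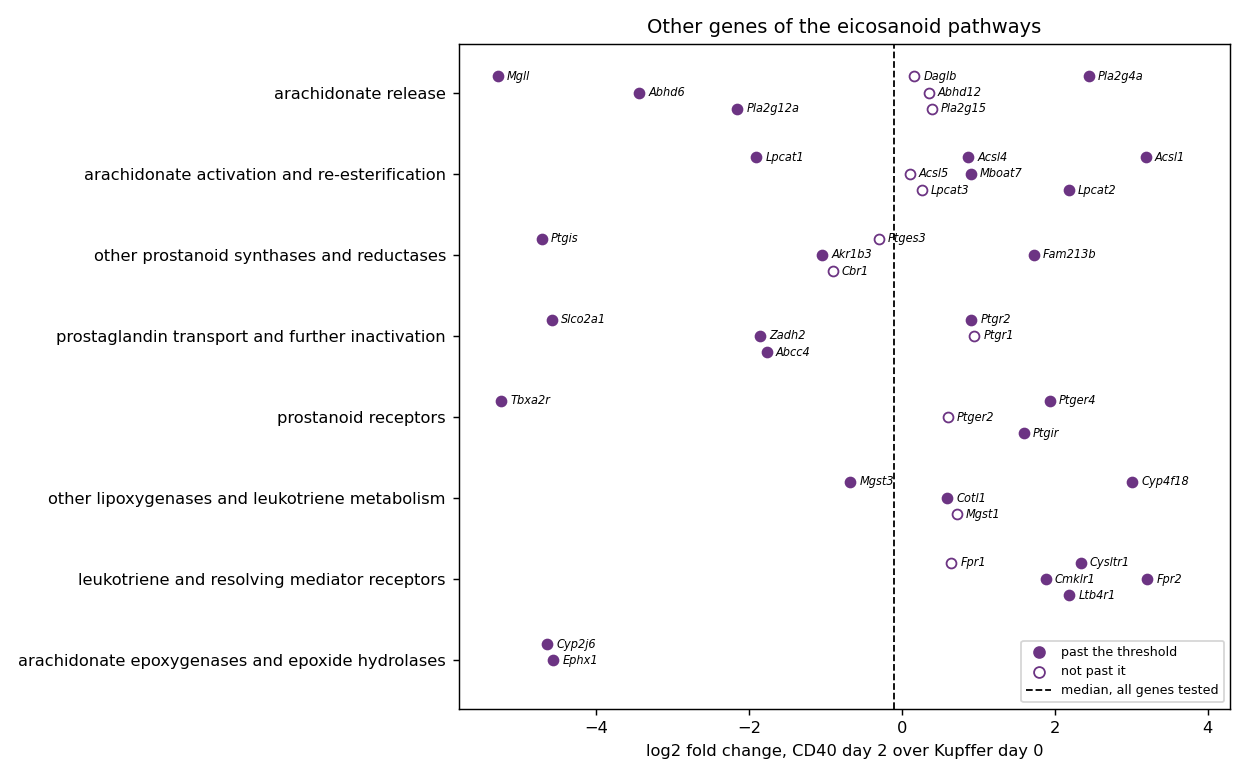
Log2 fold change, CD40 day 2 over Kupffer day 0 (x axis), of the 39 tested genes of 8 lists (y axis). Each point is a gene, filled where it passed the threshold, and the dashed line is the median of all genes tested. Of the receptors for leukotrienes and resolving mediators 4 of 5 were called higher, where 23.2% of all genes tested were. Mgll, at -5.28, and Tbxa2r, at -5.24, lie furthest to the left, and each reached the filter level in only 1 CD40 library.

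Of the 4 prostanoid receptors tested, 2 were higher and 1 lower, and without either Kupffer library 0 were called higher. Both that were higher, Ptger4 and Ptgir, are among the genes that entered the test through CD40 day 2. Tbxa2r, the thromboxane receptor, was at 10.9, 4.24, 3.19 and 1.19 CPM in CD40 day 2, and at 178.6 and 156.0 CPM in Kupffer day 0 (log2 fold change -5.24 ± 0.42, edgeR adjusted p = 6.76e-06; -5.94 without CD40 day 2 a). Every CD40 library was far below both Kupffer libraries. Ptger4, a receptor of prostaglandin E2, was at 14.9 ± 6.31 CPM in CD40 day 2 and 3.4 ± 0.872 CPM in Kupffer day 0 (edgeR adjusted p = 0.0113), and was not called without Kupffer day 0 a (0.0849) or b (0.0602). Ptger2, another receptor of prostaglandin E2, was at 7.26 ± 3.45 CPM in CD40 day 2 and 4.96 ± 1.11 CPM in Kupffer day 0 and did not pass (edgeR adjusted p = 0.358). Ptgir, the prostacyclin receptor, was called higher (1.6 ± 0.54, edgeR adjusted p = 0.0306), in 3 of 8 alternatives, and was at 2.33 without Kupffer day 0 a.

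Of 5 receptors for leukotrienes and resolving mediators tested, 4 were higher and 0 lower (median log2 fold change 2.19), and 2 were called higher without either Kupffer library. Ltb4r1, the high-affinity receptor of leukotriene B4, was at 27.3, 18.4, 74.2 and 60.2 CPM in CD40 day 2, and at 11.5 and 8.36 CPM in Kupffer day 0 (2.19 ± 0.58, edgeR adjusted p = 0.00979), a call lost without Kupffer day 0 a (0.0855) or b (0.0647). The groups did not overlap, with CD40 day 2 c and d highest. Cysltr1, a receptor of cysteinyl leukotrienes, was at 38.2, 36.8, 41.4 and 45.9 CPM in CD40 day 2, and at 11.5 and 1.39 CPM in Kupffer day 0 (2.34 ± 0.43, edgeR adjusted p = 0.00126). The Kupffer libraries differed widely for this gene, and without Kupffer day 0 a its log2 fold change was 4.78. Fpr2, a formyl peptide receptor that also binds lipoxins, was at 319.1 ± 128.6 CPM in CD40 day 2 and 35.3 ± 5.24 CPM in Kupffer day 0 (edgeR adjusted p = 0.000191). The remaining receptor called higher reached the filter level in no Kupffer library, and its groups overlapped.

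Among the remaining leukotriene genes, 2 of 4 tested were higher and 1 lower. Cyp4f18, which in mouse neutrophils inactivates leukotriene B4, was at 200.8 ± 76.2 CPM in CD40 day 2 and 26.5 ± 9.83 CPM in Kupffer day 0 (3.02 ± 0.43, edgeR adjusted p = 0.000274). Cotl1, an actin-binding protein that binds the lipoxygenase, and Mgst3, a microsomal glutathione transferase, passed narrowly in opposite directions (0.59 ± 0.22 and -0.68 ± 0.23), and 5 and 6 of 11 alternatives kept these calls. The list of Cyp2c, Cyp2j, Cyp4a and epoxide hydrolase genes, most of them known from hepatocytes, had only 2 of 10 genes tested. Both were below the filter level in every CD40 library and passed through Kupffer day 0, which fixed their direction, with Ephx1 at 2.95 ± 1.66 CPM in CD40 day 2 against 82.5 ± 8.36 CPM in Kupffer day 0, and Cyp2j6 at 1.06 ± 0.912 CPM against 32.0 ± 5.88 CPM. Hepatocyte markers were lower as well (7 of 8 tested), at 110.3 to 215.7 CPM in CD40 day 2 and 554.6 and 1344 CPM in Kupffer day 0 a and b. In Kupffer day 0 a and b Ephx1 was at 88.4 and 76.6 CPM and Cyp2j6 at 36.2 and 27.85 CPM. Both were higher in a, where the hepatocyte sum was lower. The part of hepatocytes in these falls was not tested.

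Mast cells, eosinophils and platelets are also known to hold several of these enzymes. Of their defining markers, Cpa3 of mast cells, Epx of eosinophils and Pf4 of platelets were at 0 counts in all 6 libraries. The 8 mast cell and basophil markers in the table summed to 9.53 to 25.5 CPM in CD40 day 2, and 234.3 and 296.6 CPM in Kupffer day 0, with 2 of 2 tested lower. In Kupffer day 0 Fcer1a and Ms4a2 were also at 0 counts, so the sum there rests on the other markers of the list. The 7 platelet markers summed to 55.2 to 138.4 CPM in CD40 day 2, and 531.7 and 520.9 CPM in Kupffer day 0, with 1 higher and 2 lower of 3 tested. Gp1bb and Gp5 were also at 0 counts in Kupffer day 0, with the same limit on the platelet sum. The 7 eosinophil markers summed to 5.96 to 14.15 CPM in CD40 day 2, and 5.74 and 8.36 CPM in Kupffer day 0, and 0 of them passed the filter. Neutrophil markers, of which 1 of 9 tested was higher and 1 lower, summed to 959.1 to 1873 CPM in CD40 day 2, and 914.0 and 3142 CPM in Kupffer day 0. Conventional dendritic cell markers, of which 3 of 7 tested were higher and 1 lower, summed highest in CD40 day 2 b, with 1054 CPM there, 656.4 to 760.9 CPM in the other CD40 libraries, and 152.7 and 200.5 CPM in Kupffer day 0. Plasmacytoid dendritic cell markers, with 0 called, summed to 490.7 to 969.4 CPM in CD40 day 2, and 547.2 and 612.8 CPM in Kupffer day 0. Erythroid markers, also with 0 called, summed to 86.5, 69.3, 282.2 and 789.3 CPM in CD40 day 2 a to d, and 186.0 and 66.8 CPM in Kupffer day 0. Their part in the values of the members was not tested.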

How the data were processed

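The authors deposited raw counts, whole numbers per gene symbol, from poly(A) libraries sequenced at the 3' end, with barcodes and unique molecular identifiers per the labels' protocol. GRCm38.p6 and DESeq2 1.22.2 are named in the submitters' processing notes, while aligner, counting program, strand use and the counting of reads or identifiers are unstated, so overlapping and antisense genes are uncertain. Columns carry the group but no replicate number, and 0 columns belonged to no sample. The 6 libraries of CD40 day 2 and Kupffer day 0 were fitted with edgeR 4.0.16 in R 4.3.3, by its quasi-likelihood test after TMM scaling and the default filterByExpr, two-sided, no block, with Benjamini-Hochberg adjustment over 9852 genes. CPM are scaled to the TMM-adjusted total of the genes tested. The SE is the log2 fold change over the square root of F. Within groups, every pair of libraries differed beyond sampling noise, with a chi-square of 3.17 to 11.7 times its degrees of freedom. On simulated data the test recovered 75 of 91 genes changed by a log2 of 2, and 22 of 94 changed by a log2 of 1. The adjustment is stricter where few genes change, as in the simulation, while 53.4% of all genes tested were called here. The simulated shares are therefore not those of this comparison. Alternatives were RLE and raw library totals, DESeq2 1.42.0, 2 other filters, leaving out each library, and other added counts for the ratios. The members and lists were chosen with earlier results of these data known. All 10 members are named. Of each pathway list the called genes with the 2 lowest adjusted p in each direction are named, and Pla2g4a, Ptger2, Ptger4, Ltb4r1 and Cysltr1 whatever their values.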

Additional observations from a re-analysis of the deposited data

Results flagged for a closer look

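Within the 4 CD40 day 2 libraries a single value stood far from the other 3 in 4 of 56 sets of values examined (gap over range above 0.829), and chance gives this in about 1 of 20 sets. Mgll was at 12.7 CPM in library a and between 6.37 and 7.15 CPM in the other 3. Ptgis was at 0.596 CPM in library d, which is a single count, and at 0 in the others. Eosinophil markers summed to 14.15 CPM in library b, against 5.96 to 6.37 CPM elsewhere. Cholangiocyte markers summed to 112.6 CPM in library d, against 32.8 to 45.3 CPM in the other 3. None of the 10 members and none of the 7 ratios between them was set apart in this way.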

How the results depend on the processing

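No member and no pathway gene named here changed direction under any of the 11 alternatives in which it could be tested. Ptgs1, Ptgs2, Hpgd, Alox5ap and Ltc4s stayed past the threshold in all of theirs. Of these, Ptgs2 and Ltc4s had entered the test through the group in which they are high. Of 96 results for the members, 80 stayed on their side of the threshold, 10 lost the call (9 of them Lta4h) and 6 gained it (Hpgds and Tbxas1). With no filter on low counts 5 members were called higher. Leaving out 1 library at a time, 2 to 5 members were called higher, the fewest without Kupffer day 0 a and the most without CD40 day 2 a, and 3 lower. Over all genes these fits called 3206 to 5514 (1406 to 2551 higher, 1800 to 2963 lower), the fewest without Kupffer day 0 a, where the lone Kupffer library is assumed to vary like the others. Calls over the pathway lists numbered 17 to 29 in these fits, the fewest again without Kupffer day 0 a, and 18 with at least 10 counts in 4 libraries, against 28, where fewer genes were tested. Raw library totals moved the median log2 fold change of all genes by -0.17. With 0.1 added to each count, the difference in Alox5/Ptgs2 was -5.45 rather than -4.78. For the other results that moved, the cause was not tested. No paired analysis was possible because the columns carry no replicate number. With 2 Kupffer libraries the exact tests cannot pass, and Alox5 had too few counts to be tested.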
